A study of Mus musculus with 6 samples.

Results

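Hox genes encode the homeodomain transcription factors that give positional identity along the body axis and the limb, and the gene table listed 39 of them among its 23420 genes. They were taken as every row named Hoxa, Hoxb, Hoxc or Hoxd followed only by a paralogue number. The Hoxa cluster held 11 of them, the Hoxb cluster 10, and the Hoxc and Hoxd clusters 9 each. In the humerus at postnatal day 6 the reads came mainly from the Hoxa and Hoxb clusters, led by Hoxb3, Hoxb2 and Hoxa10. Per kb of exon, Hoxb2 was the highest, followed by Hoxd8 and Hoxb3. Reads of Hoxb2 and Hoxb3 cannot be told apart with certainty from those of an antisense gene that overlaps both. Genes of paralogue groups 11 to 13 held 21 reads in all 6 libraries together, within the exons counted. Loss of Tfam from the limb mesenchyme came with no Hox gene past the threshold in either direction.

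As background, the genes of a Hox cluster lie in the order in which they are switched on in the embryo, from the group 1 end to the group 13 end, and genes with the same number in different clusters are paralogues that derive from a shared ancestral gene. In the mouse forelimb, genes of groups 9 and 10 pattern the upper arm, those of group 11 the forearm, and those of group 13 the hand. Several anterior and central Hox genes are also active in blood-forming and endothelial cells, and skeletal cells of the adult keep part of the embryonic Hox code of their region.

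The 6 libraries were made from poly(A) RNA of humeral bone of C57BL/6 mice, taken on postnatal day 6, after the marrow space had been rinsed with PBS. There were 3 libraries from mice in which Tfam was deleted by Prx1-Cre (Tfam cKO) and 3 from mice labelled Control. Tfam encodes mitochondrial transcription factor A, which packages mitochondrial DNA and starts its transcription. Prx1-Cre acts in the limb mesenchyme, which forms bone, cartilage and connective tissue, so the bone also held blood, vessel and muscle cells outside that lineage. The labels and title do not say which exons of Tfam were removed or which genotype the word Control stands for. The labels do not say that the libraries came from separate animals, so p-values measure the spread between these libraries.

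The libraries held 1441152 to 1714770 reads assigned to genes. Tfam averaged 40.6 ± 10.8 normalized reads in Tfam cKO and 70.7 ± 8.75 in Control libraries (SD, n = 3 each), without overlap, a log2 fold change of -0.81 ± 0.21 (SE) with a limma adjusted p of 0.0246. That call ended when any of 4 libraries was left out (Tfam cKO replicate 1 or Control replicate 1, 2 or 3), with limma adjusted p between 0.0503 and 0.107, and with DESeq2 (adjusted p = 0.0564). The forelimb origin was also looked at through limb-type genes. Tbx5, a forelimb gene, averaged 8.62 ± 2.12 normalized reads in Tfam cKO and 7.83 ± 1.003 in Control libraries (SD, n = 3 each). The hindlimb gene Tbx4 averaged 0.674 ± 0.588 in Tfam cKO and 0.644 ± 0.558 in Control libraries, and the hindlimb gene Pitx1 had no read.

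Hox genes resemble each other most in the homeobox, which encodes the DNA-binding homeodomain, and this bears on how surely a read can be given to 1 of them. The stretch of 30 bases around the codons for the recognition helix is shown for 5 Hox genes among the more abundant per kb of exon. It is also shown for Hoxb9 and Hoxc9, whose transcripts share an exact run of 50 bases. Hoxb9 and Hoxc9 differ within the stretch shown, so that run does not span all of it. Each stretch is read 5′ to 3′ on the coding strand of GENCODE release M21 transcripts (GRCm38). Capitals mark bases unlike the most common base at that position over the 39 genes.
Hoxd8: aaaatctggttccagaacAggagAatgaaA
Hoxa10: aaaatctggttTcagaaTcgCagGatgaaA
Hoxb4: aaGatctggttccagaaTcggCgcatgaag
Hoxa5: aaaatctggttccaAaacAggagGatgaag
Hoxa7: aaGatctggttccagaaTcggCgcatgaag
Hoxb9: aaaatctggttTcagaaccggCgGatgaaA
Hoxc9: aaaatctggttTcagaaccggagGatgaag
Over the 39 genes, 14 of the 30 positions varied and 36 distinct sequences remained, since some genes, Hoxa6, Hoxa7 and Hoxb4 among them, were identical there. Long exact matches between whole transcripts were few. Of the 741 pairs of Hox genes, 20 shared an exact run of more than 30 bases and 1 shared more than 50 bases, the pair Hoxa6 and Hoxb4 with 52. The median of the longest shared run was 15 bases. Neither the read length nor the treatment of reads that match several places was stated in the sources used, so a read that falls inside such a run cannot be placed with certainty.

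All 6 libraries together held 1462 Hox reads, of which the Hoxb cluster had 683, the Hoxa cluster 518, the Hoxd cluster 168 and the Hoxc cluster 93. Hoxb3 with 278 reads, Hoxb2 with 238 and Hoxa10 with 181 made up 47.7% of them. A read was found for 33 of the 39 genes, and 15 genes were read in every library. The 6 genes without a read were Hoxb13, Hoxc9, Hoxc10, Hoxc11, Hoxc12 and Hoxd12. For the exons counted, a floor of 3 reads over the 6 libraries was taken as the most that such a count allows. At the 3′ end the counted models stop short of the GENCODE models by 1007 bases for Hoxc11, 848 for Hoxb13, 655 for Hoxc9 and 92 for Hoxc12. That gap was 0 for Hoxc10 and Hoxd12, and 1159 bases for Hoxa13, which had 1 read. The zeros therefore do not cover the whole of each gene. All 11 Hoxa genes had a read, as did 9 of 10 Hoxb, 5 of 9 Hoxc and 8 of 9 Hoxd genes. The clusters lie on chromosome 6 (Hoxa), chromosome 11 at 96194361 to 96368253 (Hoxb), chromosome 15 at 102921131 to 103036852 (Hoxc) and chromosome 2 at 74668310 to 74765142 (Hoxd), in mm10 coordinates.

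Levels were compared between genes only after division by exon length, as normalized reads per kb of exon. On that scale the Hoxb cluster summed to 46.4 ± 14.4 in Tfam cKO and 51.5 ± 6.24 in Control libraries, and the Hoxa cluster to 40.7 ± 1.38 in Tfam cKO and 36.0 ± 4.26 in Control libraries (SD, n = 3 each). The Hoxd cluster summed to 18.1 ± 1.23 in Tfam cKO and 15.7 ± 3.99 in Control libraries, and the Hoxc cluster to 7.79 ± 3.80 in Tfam cKO and 8.63 ± 2.33 in Control libraries. In these sums per kb Hoxa and Hoxb were the high clusters and Hoxc the lowest one in both genotypes. The libraries of the genotypes overlapped in each cluster, most narrowly in Hoxa, at 39.3 to 42.1 in Tfam cKO and 31.6 to 40.1 in Control libraries. Summed without division by length, the Hoxa cluster held 92.0 to 93.2 normalized reads in Tfam cKO and 71.2 to 89.5 in Control libraries, without overlap. Over all clusters the sum per kb was 113 ± 16.3 in Tfam cKO and 112 ± 12.1 in Control libraries.

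**Figure D1:**
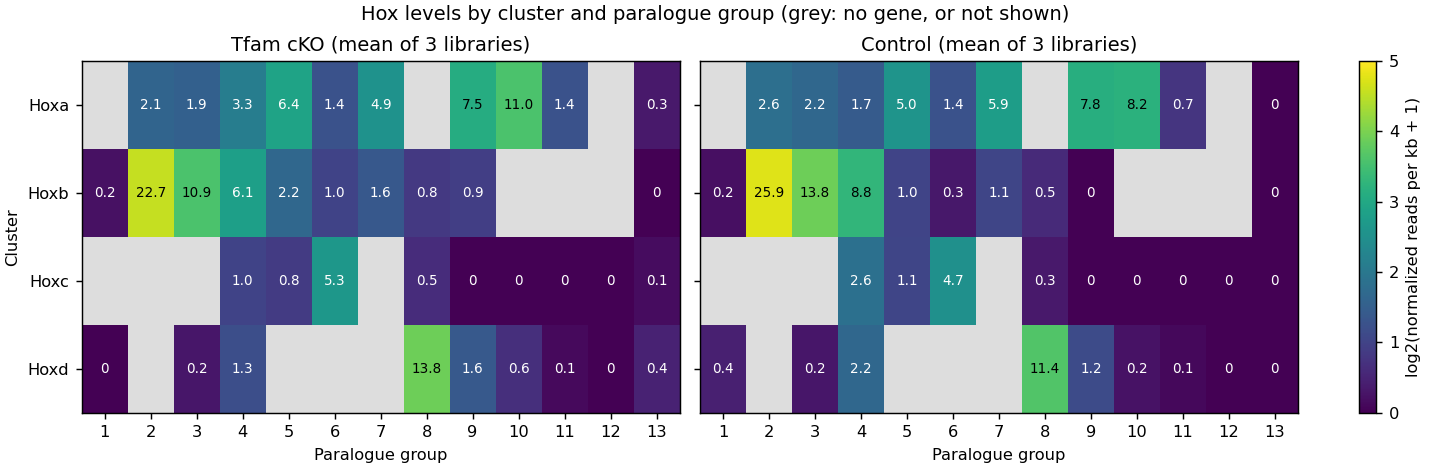
Mean level of each Hox gene (normalized reads per kb of exon, printed in each cell; colour on a log2(value + 1) scale) by cluster and paralogue group, for the 3 Tfam cKO libraries on the left and the 3 Control libraries on the right; grey cells mark positions without a gene or not shown. Hoxb2 is the brightest cell in both panels, at 22.7 in Tfam cKO and 25.9 in Control libraries, and the columns of groups 11 to 13 are dark in both.

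Across paralogue groups the level per kb was highest in group 2, which Hoxb2 dominated, at 24.8 ± 9.50 in Tfam cKO and 28.5 ± 5.21 in Control libraries (SD, n = 3 each). The order of the next groups by mean differed between the genotypes, but the libraries of the genotypes overlapped in each of groups 3, 4, 8, 9 and 10. Group 3 summed to 13.1 ± 3.09 in Tfam cKO and 16.3 ± 2.18 in Control libraries, group 8 to 15.2 ± 2.02 in Tfam cKO and 12.2 ± 2.20 in Control libraries, and group 4 to 11.7 ± 2.24 in Tfam cKO and 15.2 ± 1.99 in Control libraries. Group 10, the upper-arm group, summed to 11.6 ± 1.88 in Tfam cKO and 8.38 ± 0.969 in Control libraries, and group 9 to 10.04 ± 0.795 in Tfam cKO and 9.03 ± 2.37 in Control libraries. Within each of groups 2 to 10 a single cluster carried most of the level. Hoxb2 carried group 2, Hoxb3 group 3, Hoxb4 group 4, Hoxa5 group 5, Hoxc6 group 6, Hoxa7 group 7, Hoxd8 group 8, Hoxa9 group 9 and Hoxa10 group 10. The forearm group 11 summed to 1.47 ± 1.11 in Tfam cKO and 0.794 ± 0.415 in Control libraries, group 12 had no read, and the hand group 13 had 5 reads, all in Tfam cKO libraries.

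In order of mean level per kb over the 6 libraries, Hoxb2 came first at 24.3 ± 6.38 (SD, n = 6), followed by Hoxd8 at 12.6 ± 2.71, Hoxb3 at 12.4 ± 3.16, Hoxa10 at 9.61 ± 1.97 and Hoxa9 at 7.66 ± 1.92. Hoxb4 at 7.41 ± 1.74, Hoxa5 at 5.73 ± 2.86, Hoxa7 at 5.37 ± 0.947 and Hoxc6 at 4.99 ± 1.11 came next, ahead of Hoxa4 at 2.52 ± 1.58. The ranges of neighbours stood apart at 2 places in this order. At the second the margin was narrow, with 48 reads in all for Hoxc6 and 23 for Hoxa4. Hoxb2 was above Hoxd8 in 6 of 6 libraries, with its lowest library at 16.6 and the highest Hoxd8 library at 15.2, and Hoxc6 was above Hoxa4 in 6 of 6 libraries, with its lowest at 4.08 and the highest Hoxa4 library at 3.91. The other neighbours in the order down to Hoxc4, at 1.80 ± 1.30, overlapped in their ranges. Among all 14438 genes tested, 65.9% were lower per kb than Hoxb2, 46.9% were lower than Hoxd8 and 39.5% were lower than Hoxa10. The table's gene models end short of the GENCODE models at the 3′ end for several members. The gap was 626 bases for Hoxd8, 954 for Hoxa9 and 1133 for Hoxa7, so reads there were not counted for these genes. The levels of Hoxb2 and Hoxb3 may also hold reads of an antisense gene, Hoxb3os, that overlaps their exons.

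In the comparison of Tfam cKO with Control, 22 Hox genes had a mean of at least 1 normalized read and were tested. Of these, 0 were higher and 0 were lower in Tfam cKO at a limma adjusted p under 0.05, against 6.42% of the 14438 genes tested that were higher (927 genes) and 6.01% that were lower (868 genes). At an unadjusted p under 0.05, limma gave 1 of the 22 and edgeR 1, and DESeq2 gave 0. Over all genes tested, limma gave 27.2% at that level. At the members' read depth, calls were rarer. Among genes with a mean of 5 to 60 normalized reads, which held 10 of the tested Hox genes, 8.49% were called in either direction, and among those with a mean of 1 to 5, which held the other 12, 2.38% were called.

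The log2 fold changes of the tested Hox genes had a median of 0.06, beside 0.01 over all genes tested, with 12 above 0 and 10 below. For the 10 genes with a mean of at least 5 the 95% confidence interval reached 0.47 to 0.91 on the log2 scale to either side of the estimate. Those intervals together spanned from 0.472-fold to 2.15-fold, so differences inside that range were not detectable for every one of these genes. For the other 12 the interval reached 0.96 to 1.53 to either side. In whole bone, fewer cells of a type and less RNA per cell cannot be told apart.

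**Figure D2:**
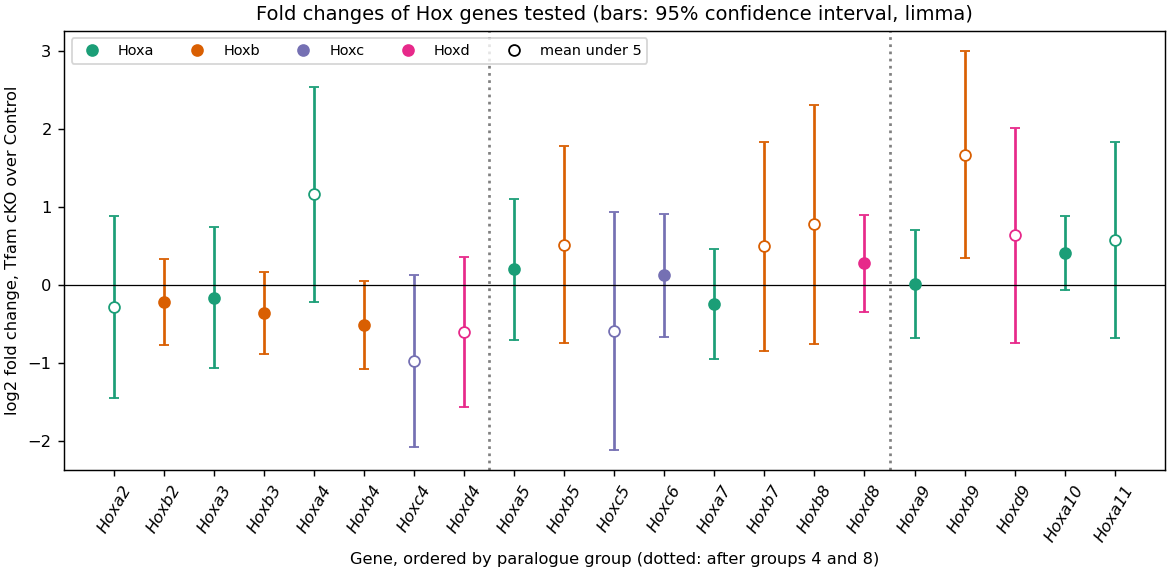
Log2 fold change (Tfam cKO over Control, on the log2(normalized reads + 1) scale) of Hox genes tested, in order of paralogue group and coloured by cluster; bars are 95% confidence intervals from limma and open circles mark genes with a mean under 5 normalized reads. Of these intervals, only that of Hoxb9, with 7 reads in Tfam cKO and 0 in Control libraries, lies wholly on one side of 0. Hoxb9 passed the filter on the mean through those reads alone, which fixed its sign in advance.

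Among the Hoxa genes, Hoxa10, which patterns the upper arm and is known to promote osteoblast genes, had the most reads. It was at 34.6, 39.5 and 29.6 normalized reads in Tfam cKO libraries and at 23.1, 24.4 and 29.8 in Control libraries. The lowest Tfam cKO library lay just under the highest Control library, and the other Tfam cKO libraries lay above all Control libraries. The mean was 34.6 ± 4.96 in Tfam cKO and 25.8 ± 3.58 in Control libraries (SD, n = 3 each), a log2 fold change of 0.41 ± 0.22 (SE) with a limma adjusted p of 0.248. Over the alternatives run its log2 fold change stayed between 0.31 and 0.52 and its adjusted p between 0.215 and 0.619.

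Hoxa9, which acts with its group 9 paralogues to set up the forelimb and is also a regulator of blood progenitors, was at 18.4, 17.9 and 14.8 normalized reads in Tfam cKO libraries and at 20.1, 10.3 and 22.9 in Control libraries. The Control libraries spanned the Tfam cKO libraries on both sides, and the log2 fold change was 0.01 ± 0.32 (SE; limma adjusted p = 0.990). Hoxa5, a central gene with roles in lung and skeleton, was at 7.57, 7.53 and 21.2 in Tfam cKO libraries and at 10.04, 11.2 and 6.96 in Control libraries. A single Tfam cKO library, replicate 3, was high, and without it the log2 fold change of 0.20 ± 0.42 (SE; limma adjusted p = 0.806) became -0.26. Hoxa7, a central gene of the trunk axis, was at 10.8, 10.4 and 7.41 in Tfam cKO libraries and at 13.1, 11.2 and 9.95 in Control libraries. The groups overlapped, and the log2 fold change was -0.25 ± 0.32 (SE; limma adjusted p = 0.675).

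The remaining tested Hoxa genes had few reads. Hoxa4 was at 5.41, 5.65 and 4.23 normalized reads in Tfam cKO libraries and at 0, 1.87 and 5.97 in Control libraries. The Control libraries differed widely among themselves, and its log2 fold change was 1.16 ± 0.64 (SE; limma adjusted p = 0.266). Hoxa3, a regulator of pharyngeal organs, averaged 4.83 ± 1.46 normalized reads in Tfam cKO and 5.54 ± 1.53 in Control libraries, and Hoxa2, which patterns the second pharyngeal arch, averaged 3.47 ± 2.50 in Tfam cKO and 4.29 ± 2.14 in Control libraries (SD, n = 3 each). Hoxa11, the forearm gene of this cluster, averaged 3.10 ± 2.19 in Tfam cKO and 1.60 ± 1.05 in Control libraries. In each of these 3 genes the groups overlapped, and Hoxa6 with 6 reads and Hoxa13 with 1 read were not tested.

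Hoxb3 and Hoxb2, neighbours with main roles in the hindbrain, held the most Hoxb reads. Hoxb3 was at 27.1, 43.3 and 51.8 normalized reads in Tfam cKO libraries and at 43.2, 48.7 and 62.7 in Control libraries, a log2 fold change of -0.36 ± 0.24 (SE; limma adjusted p = 0.363). Hoxb2 was at 27.1, 32.0 and 51.8 in Tfam cKO libraries and at 32.1, 46.8 and 47.7 in Control libraries, a log2 fold change of -0.22 ± 0.26 (SE; limma adjusted p = 0.631). For both genes the groups overlapped, with Tfam cKO replicate 1 the lowest library and Tfam cKO replicate 3 well above it. In GENCODE an antisense gene without a row in the table, Hoxb3os, covers 955 of the 1629 exon bases of Hoxb2 and 2250 of the 3721 exon bases of Hoxb3. The kit marked strand, but whether counting used strand was not stated in the sources used, so reads of Hoxb2, Hoxb3 and Hoxb3os cannot be told apart with certainty.

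**Figure D3:**
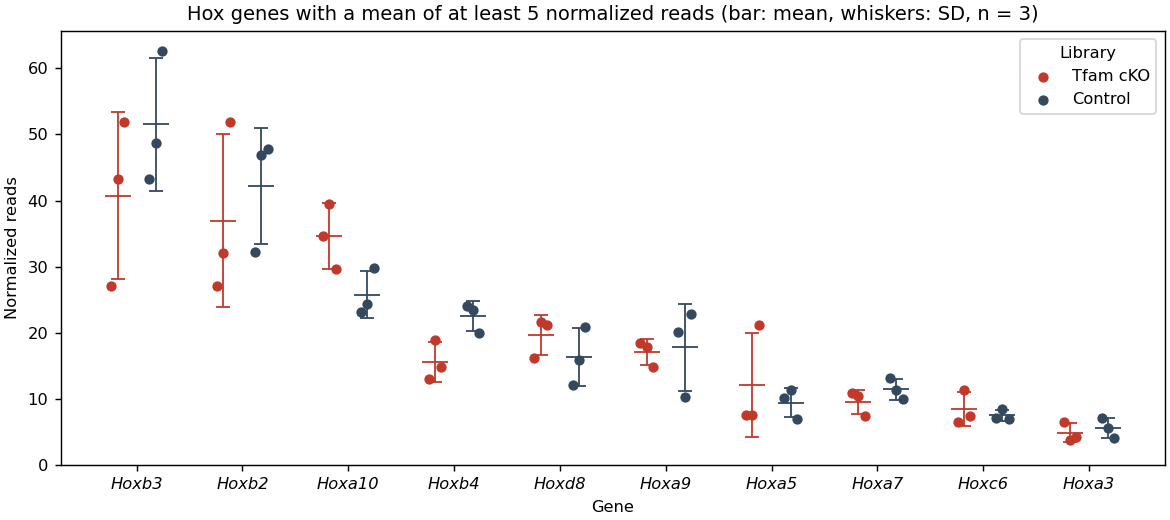
Normalized reads per library (points) of the 10 Hox genes with a mean of at least 5, with the mean (long bar) and SD (whiskers, n = 3), Tfam cKO left of Control for each gene. The 3 Tfam cKO points of Hoxb4 lie below the 3 Control points, while the points of the other 9 genes overlap between the groups.

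Hoxb4, known for promoting the self-renewal of blood stem cells, was at 12.98, 18.8 and 14.8 normalized reads in Tfam cKO libraries and at 24.1, 23.4 and 19.9 in Control libraries. All Tfam cKO libraries lay below all Control libraries. The mean was 15.5 ± 2.99 in Tfam cKO and 22.5 ± 2.26 in Control libraries (SD, n = 3 each), and the log2 fold change of -0.52 ± 0.26 (SE) had a limma adjusted p of 0.227. Over the alternatives run its log2 fold change stayed between -0.65 and -0.40 and its adjusted p between 0.173 and 0.611. Among the 22 tested Hox genes, the groups did not overlap for 2 that were lower in Tfam cKO, Hoxb4 and Hoxc4, and for 1 that was higher, Hoxb9. The last of these passed the filter on the mean through its Tfam cKO reads alone. Of all genes tested, the groups did not overlap for 15.4% that were lower and 16.6% that were higher in Tfam cKO, so the members' counts were not above the background.

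Hoxb9, a gene of the thoracic axis and the limb field, had 2, 1 and 4 reads in Tfam cKO libraries and 0 in each Control library. With the floor of 3 reads put in for the Control group, the 7 Tfam cKO reads gave a ratio of 2.50. That ratio leaves out the counting error of the Tfam cKO reads, so it is not a lower bound. On the scale tested, the limma confidence interval of Hoxb9 ran from 1.27-fold to 7.98-fold. Its limma adjusted p was 0.0968 (unadjusted p = 0.0178). Hoxb9 passed the filter on the mean through its Tfam cKO reads alone, which fixed its sign in advance. This interval and these p-values are therefore given as descriptions only. With no filter on low values the limma adjusted p was 0.0379, and over all alternatives it lay between 0.0379 and 0.206. These 7 reads carry the whole difference, and Hoxb9 shares an exact run of 50 bases with Hoxc9, which had no read. The other Hoxb genes had few reads. Hoxb5 averaged 4.12 ± 3.86 normalized reads in Tfam cKO and 1.96 ± 0.0733 in Control libraries, with Tfam cKO replicate 3 at 8.46. Hoxb7 averaged 2.05 ± 1.06 in Tfam cKO and 1.33 ± 1.15 in Control libraries, and Hoxb8 averaged 2.06 ± 1.11 in Tfam cKO and 1.34 ± 2.32 in Control libraries (SD, n = 3 each). None of these 3 passed the limma threshold (adjusted p between 0.524 and 0.659), and Hoxb6 with 5 reads and Hoxb1 with 2 reads were not tested.

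In the Hoxc cluster Hoxc6 was the highest gene. It was at 6.49, 11.3 and 7.41 normalized reads in Tfam cKO libraries and at 7.03, 8.43 and 6.96 in Control libraries. The groups overlapped, and the log2 fold change was 0.12 ± 0.36 (SE; limma adjusted p = 0.870). Hoxc4 was at 1.08, 2.82 and 2.12 in Tfam cKO libraries and at 4.02, 8.43 and 2.98 in Control libraries. The highest Tfam cKO library lay just below the lowest Control library, and the log2 fold change of -0.98 ± 0.51 (SE) had a limma adjusted p of 0.239. Hoxc5 averaged 2.24 ± 2.998 in Tfam cKO and 2.91 ± 1.65 in Control libraries, with overlap. Hoxc8 had 6 reads and Hoxc13 had 1, so no Hoxc gene beyond group 6 could be tested.

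In the Hoxd cluster Hoxd8 stood alone at a high level. It was at 16.2, 21.7 and 21.2 normalized reads in Tfam cKO libraries and at 12.1, 15.9 and 20.9 in Control libraries. The groups overlapped, with Control replicate 1 the lowest library, and the log2 fold change was 0.28 ± 0.29 (SE; limma adjusted p = 0.579). Hoxd4 averaged 3.36 ± 1.30 in Tfam cKO and 5.53 ± 1.47 in Control libraries (SD, n = 3 each), with overlap and a log2 fold change of -0.60 ± 0.44 (SE; limma adjusted p = 0.418). Hoxd9, the upper-arm gene of group 9 in this cluster, averaged 3.44 ± 0.787 in Tfam cKO and 2.56 ± 2.37 in Control libraries, with 1 Control library at 0. The genes of groups 10 to 13 in this cluster, which act in the limb, were near 0, with 4 reads for Hoxd10, 2 for Hoxd11, none for Hoxd12 and 3 for Hoxd13. Hoxd3 with 4 reads and Hoxd1 with 2 reads were not tested either. In all, 17 of the 39 genes were not tested, and the 11 of them with a read had at most 6 reads each.

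Set out by section of the clusters, the signs of the fold changes differed, although no single gene was called. In groups 1 to 4, 8 of 9 tested genes had a negative log2 fold change (median -0.28), with Hoxa4 the exception. In groups 5 to 8, 6 of 8 had a positive one (median 0.24), with Hoxc5 and Hoxa7 the exceptions, and in groups 9 to 13 all 5 tested genes, Hoxa9, Hoxb9, Hoxd9, Hoxa10 and Hoxa11, had a positive one (median 0.58). Of these 5, Hoxb9 passed the filter on the mean through its Tfam cKO reads alone, which fixed its sign in advance. Hoxa9 was close to no change, at a log2 fold change of 0.01. Leaving out each library in turn gave 7 to 8 negative genes in groups 1 to 4, 5 to 6 positive genes in groups 5 to 8 and 4 to 5 positive genes in groups 9 to 13. These counts are a description with no test, since genes of a cluster share their libraries and the sections were set with the values known.

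Groups 1 to 4 held 41.4%, 45.9% and 53.2% of the Hox reads in Tfam cKO libraries and 55.2%, 59.9% and 59.0% in Control libraries. The exact 95% binomial intervals, which cover counting error only, ran from 34.3% to 48.7% in Tfam cKO replicate 1 and from 52.9% to 64.9% in Control replicate 3. Tfam cKO replicate 2 was at 39.8% to 52.1% and Control replicate 2 at 53.7% to 66.0%. The intervals of Tfam cKO replicates 1 and 2 lay below those of Control replicates 2 and 3. They overlapped that of Control replicate 1, at 48.4% to 61.9%. The interval of Tfam cKO replicate 3, at 46.8% to 59.5%, overlapped every Control interval. All Tfam cKO libraries lay below all Control libraries, with means of 46.8% ± 5.96 in Tfam cKO and 58.0% ± 2.50 in Control libraries (SD, n = 3 each). A share depends on the other sections, and the summed level of groups 1 to 4 overlapped, at 85.5, 116 and 142 normalized reads in Tfam cKO libraries and 123, 144 and 160.1 in Control libraries. Groups 5 to 8 held 24.1%, 27.6% and 27.0% in Tfam cKO libraries and 24.0%, 22.6% and 20.1% in Control libraries. The Tfam cKO libraries were above the Control libraries, by a narrow margin between the nearest pair. Groups 9 to 13 held 34.6%, 26.5% and 19.8% in Tfam cKO libraries and 20.8%, 17.5% and 20.9% in Control libraries. Here the groups overlapped, and Tfam cKO replicate 1 was the library farthest from the Control libraries.

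**Figure D4:**
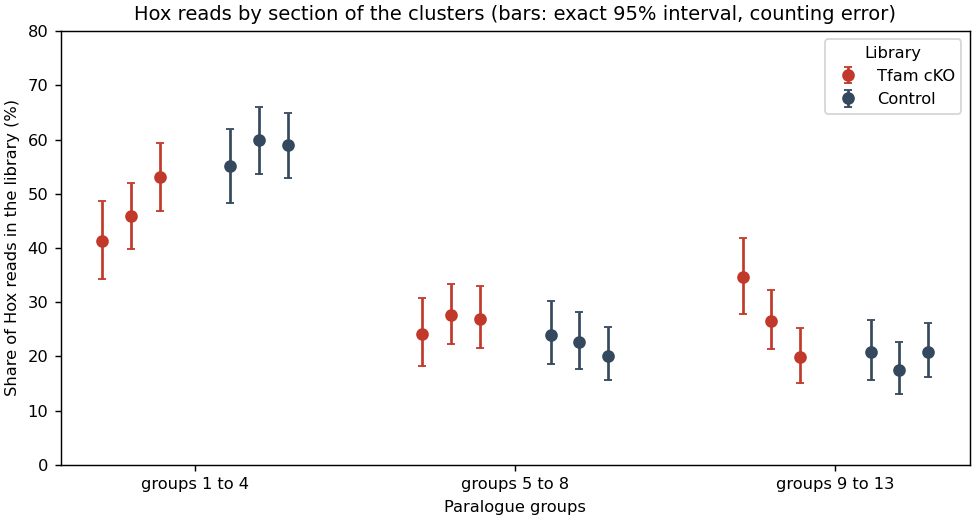
Share of each library's Hox reads (percent; 191 to 268 Hox reads in Tfam cKO and 221 to 273 in Control libraries) that fell in paralogue groups 1 to 4, 5 to 8 and 9 to 13, Tfam cKO left of Control; bars are exact 95% binomial intervals for counting error only. The share of groups 1 to 4 is lower in the 3 Tfam cKO libraries than in the 3 Control libraries, and the shares of groups 9 to 13 overlap.

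Markers of the cell types in the bone also differed between the groups. Their counts are read beside all genes tested, of which 6.42% rose and 6.01% fell. All 12 B lymphoid markers fell in Tfam cKO, with summed levels of 143 to 273 normalized reads in Tfam cKO and 746 to 1074 in Control libraries. Of the blood-forming progenitor markers 1 rose and 1 fell of 9 tested, with sums of 335 to 354 in Tfam cKO and 285 to 369 in Control libraries. Of the myeloid markers 0 rose and 3 fell of 11 tested (7130.3 to 10419.5 in Tfam cKO, 9845.5 to 12250.2 in Control libraries), and of the erythroid markers 0 rose and 3 fell of 7 tested (8903 to 14367 in Tfam cKO, 10264 to 16592 in Control libraries), with Hba-a1 and Hba-a2 at 0 in all libraries. Of the stromal progenitor markers 1 rose and 3 fell of 14, with sums of 2534 to 4645 in Tfam cKO and 4399.5 to 5127 in Control libraries, and of the osteoblast markers 3 rose and 5 fell of 12. The osteoblast sums were 98890.1 to 113896 in Tfam cKO and 171278 to 207684 in Control libraries. The part of these differences in the Hox shares was not tested.

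Of the other marker lists, the chondrocyte markers rose in 6 and fell in 2 of 14 (2740.4 to 3880.2 in Tfam cKO, 3719 to 3999 in Control libraries). Their median log2 fold change was 1.27, while the sum was weighted by Col11a2, which fell to 1208 ± 168 normalized reads in Tfam cKO, against 3084 ± 60.2 in Control libraries. The tendon markers rose in 2 and fell in 0 of 8 (1767 to 3479.9 in Tfam cKO, 1561 to 2238 in Control libraries). The endothelial markers rose in 1 and fell in 0 of 8 (1362 to 1473 in Tfam cKO, 1307 to 1349 in Control libraries). The skeletal muscle markers gave 0 calls among 11 (0 at an unadjusted limma p under 0.05), with sums between 1410.4 and 11443 in Tfam cKO and between 1325 and 7876 in Control libraries, so muscle content varied widely within each group. Skin markers summed to 7.57 to 11.3 in Tfam cKO and 6.56 to 9.95 in Control libraries, with Krt5 and Krt14 at 0 throughout.

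The clusters also hold noncoding genes. Mira, listed as a noncoding gene, had 33 reads in Tfam cKO and 25 in Control libraries, with overlap (limma adjusted p = 0.578). It lies on the strand of Hoxa7, inside the 1133 bases by which the GENCODE model of Hoxa7 runs past the counted 3′ end. Whether reads of Mira belong to Hoxa7 cannot be said with certainty. Hoxa11as, on the opposite strand to Hoxa11 and sharing 525 exon bases with it, had 9 reads in Tfam cKO, 7 of them in replicate 1 and none in replicate 2, and 0 in Control libraries (limma adjusted p = 0.203). Reads of Hoxa11 and Hoxa11as can therefore not be told apart with certainty. The noncoding gene 2700086A05Rik, which spans Hoxa5 and Hoxa6 on the opposite strand, had 1 read in Tfam cKO and 6 in Control libraries (limma adjusted p = 0.202). The gene 1700109F18Rik in the Hoxd cluster had 3 reads in Tfam cKO and 1 in Control libraries. The microRNA rows Mir196b, Mir196a-1, Mir196a-2, Mir10a, Mir10b and Mir615, and the rows Hotair and Gm53, had no read, in libraries selected for poly(A) RNA.

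The genes next to the clusters did not pass the threshold either. Skap2, beyond the group 1 end of Hoxa, averaged 131 ± 11.3 normalized reads in Tfam cKO and 115 ± 2.05 in Control libraries (SD, n = 3 each; limma adjusted p = 0.355). Calcoco1, beside Hoxc, averaged 80.3 ± 10.9 in Tfam cKO and 73.8 ± 5.94 in Control libraries (limma adjusted p = 0.677), and Mtx2, beside Hoxd, averaged 63.7 ± 12.9 in Tfam cKO and 72.2 ± 6.21 in Control libraries (limma adjusted p = 0.516). The flanking homeobox gene Evx2, 5730457N03Rik and Gm11529 had no read, Ttll6 had 1 and D930007P13Rik had 5.

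TALE homeodomain proteins bind DNA together with Hox proteins. All 9 genes of that class were tested, and 0 were higher and 0 lower, against 6.42% and 6.01% of all genes tested. Their median log2 fold change was -0.20, beside 0.01 over all genes tested. At an unadjusted limma p under 0.05 there was 1 of the 9, Pknox1, against 27.2% of all genes tested, and edgeR and DESeq2 called 0. The summed level of the 9 was 318 to 354 normalized reads in Tfam cKO and 375 to 414 in Control libraries, without overlap. Meis1 averaged 14.1 ± 1.82 normalized reads in Tfam cKO and 15.7 ± 3.46 in Control libraries, and Meis2, a marker of the proximal limb, averaged 14.1 ± 4.31 in Tfam cKO and 8.84 ± 2.78 in Control libraries (SD, n = 3 each).

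Polycomb proteins keep Hox genes silent and Trithorax proteins keep them active. Of 21 Polycomb genes 1 rose and 2 fell (median log2 fold change -0.12), against 6.42% of all genes tested that rose and 6.01% that fell. Ezh2, the histone H3 methyltransferase of this system, fell to 130 ± 19.8 normalized reads in Tfam cKO, against 228 ± 37.8 in Control libraries (log2 fold change -0.80 ± 0.15 SE, limma adjusted p = 0.00365). Jarid2, its accessory factor, fell to 81.0 ± 11.2 in Tfam cKO, against 112 ± 6.42 in Control libraries (limma adjusted p = 0.0463), and Bmi1, of the other Polycomb complex, rose to 116 ± 13.4 in Tfam cKO, against 84.0 ± 3.19 in Control libraries (limma adjusted p = 0.0401). The Jarid2 call ended without any single library other than Tfam cKO replicate 1 (limma adjusted p 0.0736 to 0.164), and also with a pseudocount of 0.1, quantile or TMM scaling, the length trend removed, edgeR and DESeq2 (adjusted p 0.0511 to 0.197). The Bmi1 call ended without any single library other than Tfam cKO replicate 2 (limma adjusted p 0.0728 to 0.142).

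Of 12 Trithorax group genes tested, 0 rose and 3 fell (median log2 fold change -0.13), all chromatin enzymes. The shares over all genes tested were 6.42% that rose and 6.01% that fell. Kmt2a (listed as Mll1), the methyltransferase best known for maintaining Hox expression, fell to 128 ± 17.5 normalized reads in Tfam cKO, against 192 ± 21.1 in Control libraries (log2 fold change -0.58 ± 0.13 SE, limma adjusted p = 0.0134). That call ended without Tfam cKO replicate 1 (limma adjusted p = 0.0530) and without Control replicate 1 (0.0782). Its relative Kmt2c (listed as Mll3) fell to 118 ± 6.73 in Tfam cKO, against 188 ± 31.8 in Control libraries (limma adjusted p = 0.00766), and the remodelling ATPase Smarca4 fell to 309 ± 44.0 in Tfam cKO, against 519 ± 71.5 in Control libraries (limma adjusted p = 0.00290). The calls of Ezh2, Kmt2c and Smarca4 held under each alternative run. Kmt2d had no row with a matching name.

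Retinoic acid sets the anterior boundaries of Hox expression in the embryo. Of 15 genes of its pathway tested, 1 rose and 1 fell (median log2 fold change 0.35), against 6.42% and 6.01% of all genes tested. Crabp2, which carries retinoic acid to its receptors, was at 22.7, 6.59 and 4.23 normalized reads in Tfam cKO libraries and at 0, 1.87 and 0 in Control libraries (log2 fold change 2.79 ± 0.65 SE, limma adjusted p = 0.0144). All Tfam cKO libraries were above the Control libraries, and the call ended without Tfam cKO replicate 1, Control replicate 1 or Control replicate 3 (limma adjusted p 0.0630 to 0.0782). Aldh1a1, an enzyme that makes retinoic acid, fell to 17.0 ± 8.29 in Tfam cKO, against 37.6 ± 11.2 in Control libraries (limma adjusted p = 0.0364), a call that ended without any single library other than Tfam cKO replicate 2 (0.0611 to 0.179).

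Of 24 other limb patterning transcription factors tested, 5 rose and 1 fell (median log2 fold change 0.48), against 6.42% and 6.01% of all genes tested. Prrx1, whose enhancer drives the Cre used here, rose to 303 ± 21.4 normalized reads in Tfam cKO, against 154 ± 14.8 in Control libraries (log2 fold change 0.97 ± 0.11 SE, limma adjusted p = 0.000231). Irx3, a proximal limb gene, rose to 61.5 ± 2.73 in Tfam cKO, against 25.9 ± 7.87 in Control libraries (limma adjusted p = 0.00408). Both calls held under each alternative run. Shox2, needed for the growth of the humerus, rose to 38.2 ± 6.79 in Tfam cKO, against 21.3 ± 5.02 in Control libraries (limma adjusted p = 0.0450), but the call ended without any single library other than Tfam cKO replicate 2 (0.0525 to 0.157). Dlx5, an osteoblast regulator, averaged 70.2 ± 6.41 in Tfam cKO and 43.6 ± 9.32 in Control libraries, and its call ended without Tfam cKO replicate 1 or 3 or Control replicate 3 (limma adjusted p 0.0844 to 0.103). Twist1 averaged 56.9 ± 6.40 in Tfam cKO and 37.5 ± 3.75 in Control libraries, and Dlx3, which fell, averaged 36.8 ± 11.4 in Tfam cKO and 61.0 ± 2.40 in Control libraries. The Twist1 call ended without any single library other than Tfam cKO replicate 2 (0.0659 to 0.146), and the Dlx3 call without any other than Tfam cKO replicate 3 (0.0742 to 0.115).

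Of 9 genes tested that have been reported as targets of Hox proteins in the limb, 3 rose and 0 fell (median log2 fold change 0.85), and 1 of the 3 was Shox2. The shares over all genes tested were 6.42% that rose and 6.01% that fell. Bmp7, a bone morphogenetic protein, rose to 33.9 ± 6.44 normalized reads in Tfam cKO, against 11.9 ± 7.02 in Control libraries (log2 fold change 1.57 ± 0.36 SE, limma adjusted p = 0.0134), a call that ended without Tfam cKO replicate 3 or Control replicate 1 or 3 (limma adjusted p 0.0554 to 0.0653). Runx3, a regulator of cartilage maturation, rose to 73.1 ± 12.5 in Tfam cKO, against 39.8 ± 0.884 in Control libraries (limma adjusted p = 0.00641), and its call held under each alternative run. Shh, the signal of the early limb bud, had no read.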

How the data were processed

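The authors deposited 1 table of 23420 genes, whose headers name a value per library and the results of a test (p-value, q-value and log2 fold change). The signal values deposited by the authors were made from read counts divided by 1 size factor per library, as the values themselves show. Every value came out as a whole number of reads (100% within 0.001 reads), so reads were recovered. Columns of per-sample values that matched no label numbered 0. TopHat, Cufflinks and the mm10 build are named in the submitters' processing notes, with no version or role. How reads were counted, and which test was run, was not stated in the sources used. Of the deposited statistics, only the q-value was used, as an alternative to the test here.

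Genes with a mean of at least 1 were tested with limma 3.58.1 (R 4.3.3) on log2(normalized count + 1), with genotype as the only term, a mean-variance trend and Benjamini-Hochberg adjustment over 14438 genes at 0.05. The scale understates the fold of genes with few reads. Alternatives were pseudocounts of 0.1 and 5, no filter or a mean of at least 5, other scalings, a replicate block, leaving out each library, removal of the trend with exon length, edgeR 4.0.16 and DESeq2 1.42.0 on recovered reads, and the deposited q-value. The Hox genes and all gene lists were chosen with earlier results of these data known. The rule for named genes took the Hox genes, Tfam, the called members of each list acting with or on Hox genes, Meis1, Meis2, Prrx1, Shox2, Tbx5, Tbx4 and Pitx1, and the other rows in and beside the clusters. Pknox1, Shh and Col11a2 were named after their values were seen. Figures were drawn with matplotlib 3.10.9. Some genes and sequences covered by these rules are not reported here.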

Additional observations from a re-analysis of the deposited data

How the results depend on the processing

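No Hox gene was called in either direction under any alternative run but 1: with no filter on low values, 1 was higher, Hoxb9. Leaving out each library gave 545 to 834 genes higher and 346 to 973 lower over all genes, beside 927 and 868 with all libraries, and DESeq2 gave 604 higher and 536 lower. The log2 fold change of Hoxa9 turned negative with a pseudocount of 5 (-0.0043), without Tfam cKO replicate 1 (-0.05), Tfam cKO replicate 2 (-0.03) or Control replicate 2 (-0.32), with edgeR (-0.045) and with DESeq2 (-0.060); leaving out each library gave -0.32 to 0.22. That of Hoxa5 did so without Tfam cKO replicate 3 (-0.26 to 0.43 over the left-out libraries), and that of Hoxc6 without Tfam cKO replicate 2 (-0.090 to 0.27). The cause was not tested. Samples with the same replicate number had deviations correlated at -0.337, 0.003 and 0.113, so the numbers were not taken as pairs, and a fit with a replicate block called 0 Hox genes and 1290 genes in all, beside 1795. It ended the calls of Bmi1, Jarid2, Shox2, Dlx5 and Twist1. DESeq2 ended those of Tfam, Aldh1a1, Bmi1, Dlx3, Dlx5, Jarid2, Shox2 and Twist1, and either no filter or removal of the length trend those of Shox2 and Twist1. The width of the confidence intervals holds both the depth of 1462 Hox reads and the spread between 3 libraries a group, which were not separated.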
